A study of Mus musculus with 16 samples.

Results

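The S100 alarmin family was followed across 4 sorted cell populations of untreated C57BL/6 mice. The members were the 8 genes S100a1, S100a4, S100a6, S100a8, S100a9, S100a10, S100a11 and S100a13, taken as every probe that the scanner files assign to these symbols, which gave 10 probes of the 39429 on the array. S100a1 and S100a4 had 2 probes each and the other members 1. All but S100a8, 7 of the 8 members, entered the tests, which covered 21980 genes or unnamed features. RNA abundance was read on 16 single-colour Agilent arrays, 4 per population. CCR2+ Mac, MHC-IIHi Mac and MHC-IIlo Mac are heart macrophages that all carried CD45, MerTK and CD64 and lacked Ly6c. The CCR2+ Mac gate took CCR2-high, MHCII-high cells. The MHC-IIHi Mac gate took CCR2-negative, MHCII-high, CD11c-low cells, and the MHC-IIlo Mac gate took CCR2-negative, CD11c-negative cells with low MHCII. Ly6cHi Mono are Ly6c-high monocytes of the blood. The labels name no treatment or allele and give neither age nor sex. It is not stated whether replicates came from separate mice, so p-values measure the spread between these samples, which may be technical.

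S100 proteins are small calcium-binding proteins with a pair of EF-hand motifs, and most of them work as dimers. Inside the cell they bind target proteins such as annexins, myosins and calcium pumps. Some are released from stressed or dying cells without a classical secretion signal and then act as alarmins on receptors such as TLR4 and RAGE. S100a8 and S100a9 form calprotectin, an abundant protein of neutrophils and circulating monocytes that is a widely used marker of inflammation, including in the injured heart.

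The probes decide what each value measures, and 4 of the designed 60-base probes are printed, 5′ to 3′. They stand for S100a4 and S100a6, called between heart groups, for S100a1, whose mean was lowest in monocytes, and for S100a8, which was dim in macrophages. For S100a4 this is the second of its probes, which checked the first.
S100a4, probe A_55_P1983450: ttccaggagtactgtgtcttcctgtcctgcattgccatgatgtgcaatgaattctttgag
S100a6, probe A_51_P281089: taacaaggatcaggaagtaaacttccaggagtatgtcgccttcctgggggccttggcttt
S100a1, probe A_55_P1979645: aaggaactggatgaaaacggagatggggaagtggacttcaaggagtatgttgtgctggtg
S100a8, probe A_51_P256827: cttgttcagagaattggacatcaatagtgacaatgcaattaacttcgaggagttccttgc

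The mouse members lie on chromosome 3. In RefSeq's gene order, S100a5 is the only gene of the family between S100a4 and S100a6, and S100a8 and S100a9 are neighbours, whereas S100a10 and S100a11 lie farther along the chromosome. RefSeq promoter windows of 250 bases before and 50 after the transcription start were found for 7 of the 8 members, all but S100a10. The 250 bases before the start are printed for S100a4, S100a6 and S100a11, the members called both lower in every macrophage group than in monocytes and higher in CCR2+ Mac than in MHC-IIHi Mac, and for S100a8 and S100a9. The build is GRCm38.p6, and capitals mark motif matches.
S100a4, chr3:90603520-90603769, plus strand: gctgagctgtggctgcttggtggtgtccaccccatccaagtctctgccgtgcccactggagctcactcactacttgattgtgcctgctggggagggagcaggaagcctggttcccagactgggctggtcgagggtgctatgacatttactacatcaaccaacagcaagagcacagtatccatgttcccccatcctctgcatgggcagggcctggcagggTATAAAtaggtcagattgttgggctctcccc
S100a6, chr3:90612644-90612893, plus strand: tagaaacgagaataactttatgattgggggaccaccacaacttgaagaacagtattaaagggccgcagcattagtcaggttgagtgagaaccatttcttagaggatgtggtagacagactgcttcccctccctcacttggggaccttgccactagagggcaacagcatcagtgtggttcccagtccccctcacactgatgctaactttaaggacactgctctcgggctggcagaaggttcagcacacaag
S100a11, chr3:93520246-93520495, plus strand: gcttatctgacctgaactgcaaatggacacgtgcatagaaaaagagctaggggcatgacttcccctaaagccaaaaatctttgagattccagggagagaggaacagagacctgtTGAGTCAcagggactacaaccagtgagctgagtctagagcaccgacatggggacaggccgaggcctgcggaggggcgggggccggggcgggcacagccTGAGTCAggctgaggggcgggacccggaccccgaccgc
S100a8, chr3:90668821-90669070, plus strand: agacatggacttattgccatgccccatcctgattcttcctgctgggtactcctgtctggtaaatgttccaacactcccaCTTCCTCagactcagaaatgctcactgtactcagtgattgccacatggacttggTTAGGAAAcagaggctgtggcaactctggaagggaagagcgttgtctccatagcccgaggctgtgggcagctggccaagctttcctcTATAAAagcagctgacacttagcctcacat
S100a9, chr3:90695722-90695971, minus strand: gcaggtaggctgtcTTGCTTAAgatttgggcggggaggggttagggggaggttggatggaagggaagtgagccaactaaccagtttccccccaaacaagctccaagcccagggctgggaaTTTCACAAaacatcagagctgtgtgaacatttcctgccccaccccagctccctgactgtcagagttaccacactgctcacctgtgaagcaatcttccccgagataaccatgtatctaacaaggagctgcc

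The motifs searched on both strands were TTNCNNAA for C/EBP, GAGGAAG for PU.1, TGANTCA for AP-1, TTCNNNGAA for STAT and TATAAA for a TATA box, and no matches in these windows overlapped. TTNCNNAA was found in S100a8 and S100a9, and 40.7% of all 32851 promoter windows of the same length hold it. GAGGAAG was found in S100a8 and, at base 19 after the start, in S100a4, against 13.6% of all windows. TGANTCA was found at 2 positions in S100a11, against 7.81% of all windows. TATAAA began at base -31 in S100a4, at base -30 in S100a8 and at base 1 in S100a9, and 13.6% of all windows hold it. TTCNNNGAA was found in none of the 7 windows, against 8.3% of all windows. The windows of S100a1 and S100a13 hold none of the 5 motifs and share 204 bases on opposite strands. The window of S100a6 also holds none of them.

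Levels are log2 processed signals minus the array's own 75th percentile, so a level of 0 is that percentile. This percentile was a processed signal of 819 to 996 on the Ly6cHi Mono arrays. It was 1380 to 1670 in CCR2+ Mac, 941 to 1660 in MHC-IIHi Mac and 1160 to 1610 in MHC-IIlo Mac. Levels of different probes are not comparable, only the groups within a probe. Between 52.8% and 69.3% of the spots of an array were well above background, and no spot was saturated. Ccr2 averaged 0.61 in CCR2+ Mac, -3.25 in MHC-IIHi Mac, -3.86 in MHC-IIlo Mac and 1.11 in Ly6cHi Mono. Mertk averaged 2.11, 2.65 and 2.76 in the 3 macrophage groups, while no monocyte array read it well above background. Ly6c1, excluded by the macrophage gates, still averaged 2.65 in CCR2+ Mac, 1.32 in MHC-IIHi Mac and 1.44 in MHC-IIlo Mac, against 5.77 in Ly6cHi Mono. Each group held 1 fixed array position on its slide, and the effects of position and group cannot be told apart. Each of the 4 slides held 1 array of every group, and its number is the replicate number.

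S100a4, S100a6 and S100a11 were the tested members called lower in all 3 macrophage groups than in monocytes, and within the heart their means were lowest in MHC-IIHi Mac. S100a4, also known as metastasin, binds non-muscle myosin and is tied to cell movement. On its probe A_55_P1983448 it read 4.24, 4.42, 4.75 and 4.34 in CCR2+ Mac, 2.74, 3.22, 3.88 and 2.71 in MHC-IIHi Mac, 3.99, 4.22, 4.75 and 4.00 in MHC-IIlo Mac, and 6.15, 6.12, 6.08 and 5.68 in Ly6cHi Mono, each in replicate order. All monocyte arrays lay above all macrophage arrays, CCR2+ Mac and MHC-IIlo Mac overlapped, and MHC-IIHi Mac lay below every other group. In samples of bulk RNA, fewer cells of a type and less RNA per cell cannot be told apart.

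**Figure D1:**
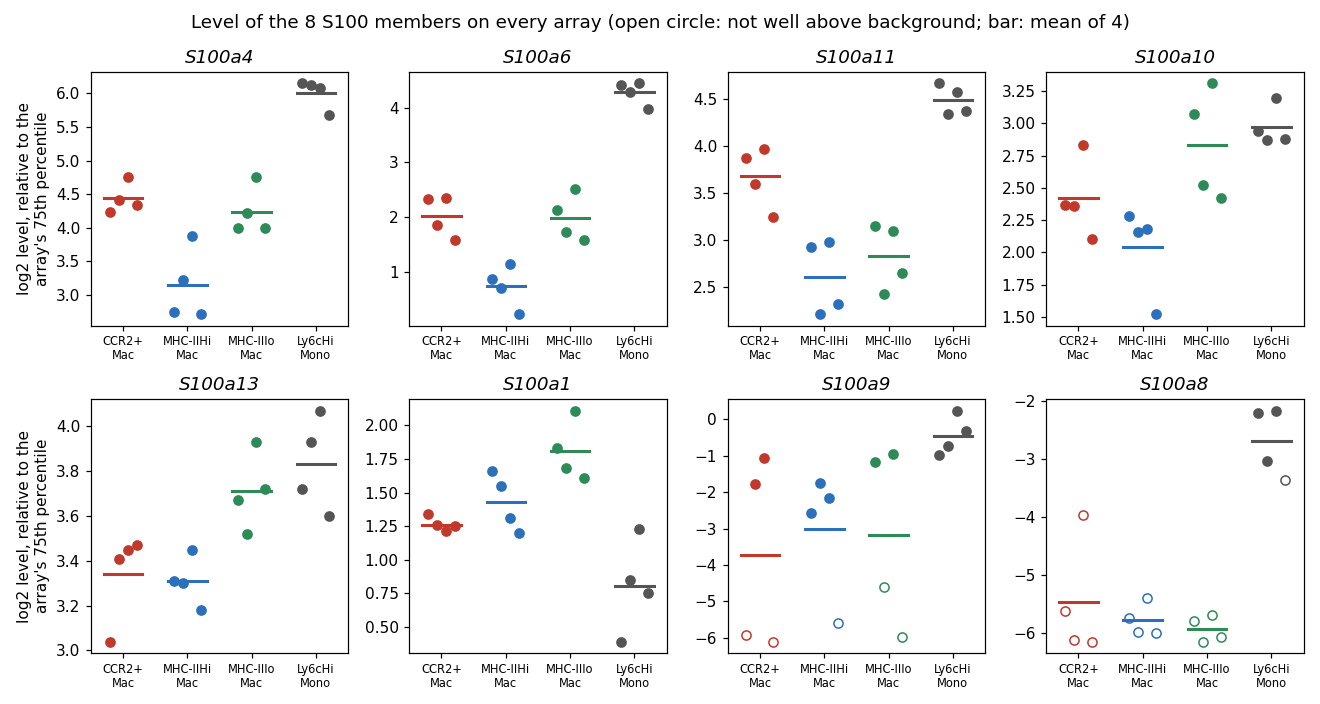
Level of the 8 S100 members on each of the 16 arrays, as log2 processed signal relative to the array's 75th percentile, with 1 point per array, a bar at the mean of 4 and open circles for readings not well above background. S100a4, S100a6 and S100a11 have their highest means in Ly6cHi Mono and lowest in MHC-IIHi Mac. S100a1 has its lowest mean (0.80) in Ly6cHi Mono, and S100a8 is dim on every macrophage array. The vertical axes differ between panels.

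S100a4 was 2.46-fold higher in CCR2+ Mac than in MHC-IIHi Mac (log2 difference 1.30 ± 0.26 SE, limma adjusted p = 0.0215), higher on 4 of 4 slides by 0.86 to 1.63. Against Ly6cHi Mono it was 2.97-fold lower in CCR2+ Mac (-1.57 ± 0.26, adjusted p = 0.000476), 7.30-fold lower in MHC-IIHi Mac (-2.87 ± 0.26, adjusted p = 8.79e-07) and 3.41-fold lower in MHC-IIlo Mac (-1.77 ± 0.26, adjusted p = 0.000129). These 3 comparisons share the same monocyte arrays. CCR2+ Mac and MHC-IIlo Mac differed by 0.20 ± 0.26, with a 95% interval from -0.36 to 0.76 and an adjusted p of 0.896. MHC-IIHi Mac stood below MHC-IIlo Mac by a log2 difference of -1.10 ± 0.26 on 4 of 4 slides without overlap, but the adjusted p was 0.278. With the replicate number as a block this difference passed (adjusted p = 0.0218).

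The second S100a4 probe, A_55_P1983450, gave the same order of groups. It averaged 1.57 ± 0.20 in CCR2+ Mac, 0.00 ± 0.31 in MHC-IIHi Mac, 1.45 ± 0.54 in MHC-IIlo Mac and 4.30 ± 0.27 in Ly6cHi Mono (SD, n = 4 arrays each). Its mean difference between CCR2+ Mac and MHC-IIHi Mac was 1.57, against 1.30 on the first probe. Against monocytes its mean differences were -2.73 for CCR2+ Mac, -4.30 for MHC-IIHi Mac and -2.85 for MHC-IIlo Mac, larger in size than on the first probe. The second probe was not tested on its own.

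S100a6, or calcyclin, binds annexins and the ubiquitin ligase partner CacyBP. It read 2.34, 1.86, 2.35 and 1.58 in CCR2+ Mac, 0.88, 0.70, 1.14 and 0.23 in MHC-IIHi Mac, 2.13, 1.73, 2.51 and 1.58 in MHC-IIlo Mac, and 4.42, 4.29, 4.44 and 3.98 in Ly6cHi Mono. The groups were ordered as for S100a4, with only CCR2+ Mac and MHC-IIlo Mac overlapping. S100a6 was 2.45-fold higher in CCR2+ Mac than in MHC-IIHi Mac (1.30 ± 0.26, adjusted p = 0.0207), and the difference stayed within 1.16 to 1.45 on the 4 slides. Against Ly6cHi Mono it was 4.76-fold lower in CCR2+ Mac (-2.25 ± 0.26, adjusted p = 1.54e-05), 11.7-fold lower in MHC-IIHi Mac (-3.55 ± 0.26, adjusted p = 7.51e-08) and 4.90-fold lower in MHC-IIlo Mac (-2.29 ± 0.26, adjusted p = 8.36e-06). CCR2+ Mac and MHC-IIlo Mac differed by 0.04 ± 0.26, with a 95% interval from -0.51 to 0.59. MHC-IIHi Mac was lower than MHC-IIlo Mac by a log2 difference of -1.25 ± 0.26 on 4 of 4 slides, with an adjusted p of 0.131 without and 0.0032 with the replicate block.

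S100a11, or calgizzarin, binds annexin A1 and takes part in repair of the plasma membrane. It read 3.87, 3.60, 3.97 and 3.25 in CCR2+ Mac, 2.93, 2.21, 2.98 and 2.32 in MHC-IIHi Mac, 3.15, 2.43, 3.10 and 2.65 in MHC-IIlo Mac, and 4.67, 4.34, 4.58 and 4.38 in Ly6cHi Mono. Here MHC-IIlo Mac overlapped with MHC-IIHi Mac and stood below all CCR2+ Mac arrays, unlike for S100a4 and S100a6. S100a11 was 2.09-fold higher in CCR2+ Mac than in MHC-IIHi Mac (1.06 ± 0.24, adjusted p = 0.0415, 4 of 4 slides). Its difference between CCR2+ Mac and MHC-IIlo Mac was 0.84 ± 0.24, also higher on 4 of 4 slides, with an adjusted p of 0.086 without and 0.00277 with the replicate block. Against Ly6cHi Mono it was 1.76-fold lower in CCR2+ Mac (-0.82 ± 0.24, adjusted p = 0.0235), 3.68-fold lower in MHC-IIHi Mac (-1.88 ± 0.24, adjusted p = 3.11e-05) and 3.16-fold lower in MHC-IIlo Mac (-1.66 ± 0.24, adjusted p = 0.000103).

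**Figure D2:**
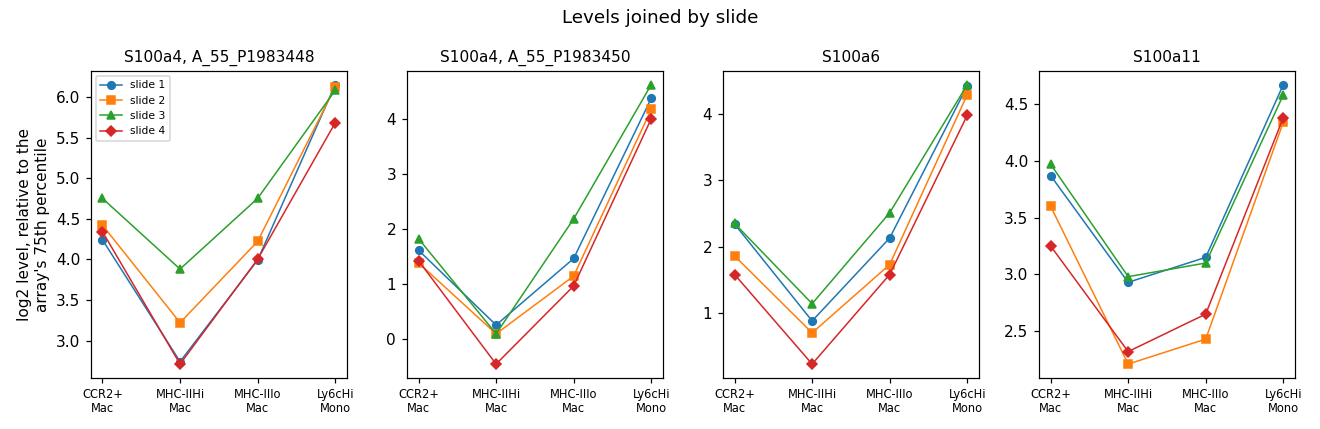
Levels of both S100a4 probes, S100a6 and S100a11 in the 4 groups, as log2 signal relative to the array's 75th percentile, with each line joining the 4 arrays of 1 slide. In every panel each line dips at MHC-IIHi Mac and peaks at Ly6cHi Mono. The vertical axes differ between panels.

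The calls between CCR2+ Mac and MHC-IIHi Mac lay near the threshold, and many were lost when 1 array was left out. That of S100a4 was lost without CCR2+ Mac replicate 2 or 3 or MHC-IIHi Mac replicate 1, 2 or 4, with differences then of 1.16 to 1.33. That of S100a6 was lost without CCR2+ Mac replicate 1 or 3 or MHC-IIHi Mac replicate 2 or 4, with differences of 1.12 to 1.28. That of S100a11 was lost without CCR2+ Mac replicate 1, 2 or 3 or MHC-IIHi Mac replicate 2 or 4, with differences of 0.93 to 1.09. It was also lost without any 1 of the 4 Ly6cHi Mono arrays or MHC-IIlo Mac replicate 4, which enter only through the shared spread (difference 1.06, adjusted p 0.0524 to 0.057). With only these 2 groups in the fit none of the 3 passed, and with median scaling S100a4 alone did. Without the filter on low signals S100a11 did not pass either (adjusted p = 0.0529). With the replicate block all 3 passed (adjusted p = 0.00185 for S100a4, 0.000263 for S100a6 and 0.0013 for S100a11). The difference of S100a11 between CCR2+ Mac and Ly6cHi Mono also lost its call without CCR2+ Mac replicate 2 or 4 or Ly6cHi Mono replicate 1 or 3 (-0.79 to -0.67), under median scaling (-0.86) and under quantile normalization (-0.37). The other calls of these 3 members against monocytes held under all 26 alternatives run for each.

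S100a10 forms a tetramer with annexin A2 that gathers plasminogen at the cell surface, and S100a13 takes part in the release of FGF1 and interleukin-1 alpha. S100a10 read 2.37, 2.36, 2.83 and 2.10 in CCR2+ Mac, 2.28, 2.16, 2.18 and 1.52 in MHC-IIHi Mac, 3.07, 2.52, 3.31 and 2.42 in MHC-IIlo Mac, and 2.94, 2.87, 3.20 and 2.88 in Ly6cHi Mono. MHC-IIHi Mac had the lowest mean but overlapped with CCR2+ Mac, and MHC-IIlo Mac overlapped with monocytes. S100a10 was 1.91-fold lower in MHC-IIHi Mac than in Ly6cHi Mono (-0.93 ± 0.24, adjusted p = 0.0109), a call that held under all 26 alternatives. CCR2+ Mac stood below Ly6cHi Mono by -0.55 ± 0.24 on 4 of 4 slides, with an adjusted p of 0.122 without and 0.0153 with the replicate block. MHC-IIlo Mac differed from Ly6cHi Mono by -0.14 ± 0.24, with a 95% interval from -0.65 to 0.37. Between heart groups no difference of S100a10 passed, and the largest was -0.79 ± 0.24 for MHC-IIHi Mac minus MHC-IIlo Mac (adjusted p = 0.638, 4 of 4 slides lower).

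S100a13 had the narrowest range of group means. It averaged 3.34 ± 0.20 in CCR2+ Mac, 3.31 ± 0.11 in MHC-IIHi Mac, 3.71 ± 0.17 in MHC-IIlo Mac and 3.83 ± 0.21 in Ly6cHi Mono (SD, n = 4 arrays each). On these scaled levels both MHCII-high groups stood below MHC-IIlo Mac and monocytes without overlap, while MHC-IIlo Mac and monocytes overlapped. It was 1.43-fold lower in MHC-IIHi Mac than in Ly6cHi Mono (-0.52 ± 0.17, adjusted p = 0.0383), and this call was lost without Ly6cHi Mono replicate 1, 2 or 3 or MHC-IIHi Mac replicate 1, 2 or 4 (-0.56 to -0.44), without CCR2+ Mac replicate 2 (adjusted p = 0.0508) or MHC-IIlo Mac replicate 4 (adjusted p = 0.0506), and also under median scaling (-0.62), normexp background correction (-0.43), quantile normalization (-0.19) and a fit of these 2 groups alone. CCR2+ Mac minus Ly6cHi Mono gave -0.49 ± 0.17 with an adjusted p of 0.0501, and 0.0115 with the replicate block.

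S100a1 was the only tested member whose mean was higher in all 3 macrophage groups than in monocytes. It is best known from cardiomyocytes, where it acts on the ryanodine receptor and the calcium pump SERCA. Its probe A_55_P1979645 read 1.34, 1.26, 1.21 and 1.25 in CCR2+ Mac, 1.66, 1.55, 1.31 and 1.20 in MHC-IIHi Mac, 1.83, 1.68, 2.11 and 1.61 in MHC-IIlo Mac, and 0.39, 0.85, 1.23 and 0.75 in Ly6cHi Mono. MHC-IIlo Mac lay above both CCR2+ Mac and monocytes without overlap, and monocyte replicate 3 reached into the range of the other macrophage groups. S100a1 was 2.00-fold higher in MHC-IIlo Mac than in Ly6cHi Mono (1.00 ± 0.19, adjusted p = 0.00131), under all 26 alternatives. It was 1.54-fold higher in MHC-IIHi Mac than in Ly6cHi Mono (0.63 ± 0.19, adjusted p = 0.0302), a call lost without Ly6cHi Mono replicate 1, 2 or 4 or MHC-IIHi Mac replicate 1 or 2 (0.49 to 0.64), with median scaling (0.52), with the mean of its probes (0.52) and in a fit of these 2 groups alone. CCR2+ Mac minus Ly6cHi Mono gave 0.46 ± 0.19 (adjusted p = 0.111), which passed without Ly6cHi Mono replicate 3 (0.60), with quantile normalization (0.53) and with the replicate as a random block (adjusted p = 0.0445). The second S100a1 probe, A_55_P1979650, gave mean differences from monocytes of 0.41 for CCR2+ Mac, 0.41 for MHC-IIHi Mac and 0.89 for MHC-IIlo Mac.

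Cardiomyocyte transcripts as a set, like S100a1, were higher on average in the macrophage groups than in Ly6cHi Mono. Of 13 listed cardiomyocyte markers 12 were tested, and 9, 11 and 10 of them were higher in CCR2+ Mac, MHC-IIHi Mac and MHC-IIlo Mac than in Ly6cHi Mono. Their summed linear level, with the array's 75th percentile set to 1, ran from 21.3 to 32.8 in CCR2+ Mac, 27.3 to 40.9 in MHC-IIHi Mac and 24.0 to 37.1 in MHC-IIlo Mac, against 2.90 to 3.68 in Ly6cHi Mono. Mb, Tnnt2 and Actc1, which encode myoglobin and sarcomere proteins, were well above background on all macrophage arrays and on no monocyte array, and Ryr2 on no array at all. The summed level was highest on average in MHC-IIHi Mac (35.0) and S100a1 in MHC-IIlo Mac (1.81). Within MHC-IIlo Mac, replicate 4 had the highest summed level (37.1) and the lowest S100a1 (1.61). Within MHC-IIHi Mac, replicate 1 was highest in both (40.9 and 1.66). Of 10 fibroblast markers 6 were tested, and Col1a1, Col1a2 and Dcn were higher in each macrophage group than in monocytes, with summed levels of 4.54 to 11.4 in CCR2+ Mac, 5.50 to 10.3 in MHC-IIHi Mac and 8.09 to 10.9 in MHC-IIlo Mac, against 1.95 to 2.32 in Ly6cHi Mono. Of 10 endothelial markers 9 were tested, and 5, 4 and 3 were higher in CCR2+ Mac, MHC-IIHi Mac and MHC-IIlo Mac than in monocytes. Their summed levels were 7.71 to 11.7 in CCR2+ Mac, 6.49 to 11.1 in MHC-IIHi Mac and 6.72 to 9.83 in MHC-IIlo Mac, against 2.98 to 5.53 in Ly6cHi Mono. The part of such transcripts in the S100a1 values was not tested. Beside these list counts, 9.92%, 10.1% and 10.1% of all genes were called higher in CCR2+ Mac, MHC-IIHi Mac and MHC-IIlo Mac than in Ly6cHi Mono.

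**Figure D3:**
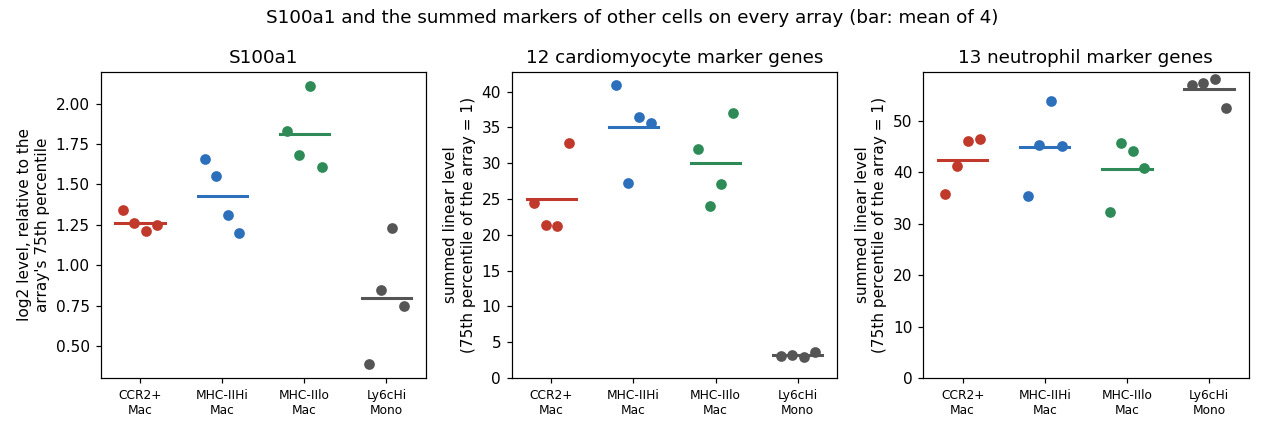
S100a1 on each array as log2 signal relative to the array's 75th percentile (left), and the summed linear levels of 12 cardiomyocyte marker genes (middle) and 13 neutrophil marker genes (right), with 1 point per array and a bar at the mean of 4. Cardiomyocyte markers sum to at least 21.3 on every macrophage array and at most 3.68 on the monocyte arrays, while neutrophil markers sum to 52.4 or more on the monocyte arrays and reach 53.7 on 1 MHC-IIHi Mac array.

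Of the calprotectin pair, S100a8 was dim in every group, and S100a9 was readable in monocytes and on some macrophage arrays. S100a9 read -5.93, -1.77, -1.07 and -6.10 in CCR2+ Mac, -2.56, -1.74, -2.17 and -5.60 in MHC-IIHi Mac, -1.17, -4.60, -0.95 and -5.99 in MHC-IIlo Mac, and -0.97, -0.74, 0.24 and -0.32 in Ly6cHi Mono. Its probe was well above background on 4 of 4 monocyte arrays, but only on 2 CCR2+ Mac, 3 MHC-IIHi Mac and 2 MHC-IIlo Mac arrays, so the macrophage groups each split into readable and dim arrays. Macrophage replicate 4 was dim in all 3 groups. The log2 differences from Ly6cHi Mono were -3.27 ± 1.30 for CCR2+ Mac (adjusted p = 0.0893), -2.57 ± 1.30 for MHC-IIHi Mac (adjusted p = 0.201) and -2.73 ± 1.30 for MHC-IIlo Mac (adjusted p = 0.168), each lower on 4 of 4 slides. That for CCR2+ Mac passed with the replicate block (adjusted p = 0.0314), with the random block (adjusted p = 0.0242), with normexp background correction (-2.22) and without CCR2+ Mac replicate 3 (-4.15). That for MHC-IIHi Mac passed in a fit of these 2 groups alone (adjusted p = 0.0444). Between heart groups the 95% intervals reached from -3.47 to 2.07 for CCR2+ Mac minus MHC-IIHi Mac, too wide to tell the groups apart.

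S100a8 was not well above background on any of the macrophage arrays, where it read -6.14 to -3.96 in CCR2+ Mac, -6.00 to -5.39 in MHC-IIHi Mac and -6.14 to -5.69 in MHC-IIlo Mac. In Ly6cHi Mono it read -2.21, -3.03, -2.17 and -3.37 and was well above background on replicates 1, 2 and 3. It was therefore left out by the filter, which asked for 4 such arrays. Each macrophage array was then put at the dimmest signal that it still read well above background. So read, S100a8 was 2.22-fold lower in CCR2+ Mac, 1.91-fold lower in MHC-IIHi Mac and 1.94-fold lower in MHC-IIlo Mac than in Ly6cHi Mono. These folds use all 4 monocyte readings, the dim replicate 4 included, and are no strict lower bounds. The processed signal of S100a8 was 23.7 to 88.4 in CCR2+ Mac, 22.4 to 26.5 in MHC-IIHi Mac and 22.5 to 23.1 in MHC-IIlo Mac. In Ly6cHi Mono it was 96.5 to 183. Without the filter the adjusted p of the limma difference was 0.000243 for CCR2+ Mac, 6.7e-05 for MHC-IIHi Mac and 4.1e-05 for MHC-IIlo Mac. That fit called 6245, 3025 and 4789 of 30274 genes or features lower in the same comparisons. The macrophage readings of S100a8 in it were not well above background. Even in monocytes the processed signal of S100a8 was at most 183, against a 75th percentile of 819 to 996 on the monocyte arrays.

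Transcripts of neutrophils, the other main source of calprotectin, moved with S100a9 and S100a8 only in part. Of 17 listed neutrophil markers 13 were tested. Prtn3, Mmp8, Padi4 and Cd177 were lower in each macrophage group than in Ly6cHi Mono. Of all genes 11.9% were called lower in CCR2+ Mac, 11.4% in MHC-IIHi Mac and 11.4% in MHC-IIlo Mac. Mmp8 was well above background on only 2 CCR2+ Mac, 2 MHC-IIHi Mac and 1 MHC-IIlo Mac arrays, so the size of its difference is not given, and it averaged 1.80 in Ly6cHi Mono. Retnlg was also lower in CCR2+ Mac, where Ly6g was higher by 1.21 ± 0.36. The Retnlg difference was at least 1.67-fold with the monocyte mean over all arrays, of which 3 read it well above background. Mmp9, dim on all monocyte arrays, was at least 2.45-fold higher in MHC-IIHi Mac and at least 2.15-fold higher in MHC-IIlo Mac. The neutrophil granule genes Ltf and Ngp were not well above background on any array. The summed level of the 13 genes, most of it from Csf3r, was 35.8 to 46.4 in CCR2+ Mac, 35.3 to 53.7 in MHC-IIHi Mac and 32.2 to 45.6 in MHC-IIlo Mac, against 52.4 to 58.1 in Ly6cHi Mono. The part of neutrophil transcripts in the S100a8 and S100a9 values was not tested.

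Counted over the 7 tested members, 3 were higher and none lower in CCR2+ Mac than in MHC-IIHi Mac, where 1.26% of all genes tested were called, 0.641% higher and 0.623% lower. The same 3 members did not overlap between these groups, against 7.8% of all genes, 3.19% higher and 4.61% lower. The median log2 difference of the members was 0.38, against -0.03 over all genes. With the replicate block 3 members were again higher, where 2.51% of all genes were called, 1.25% higher and 1.26% lower.

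Between CCR2+ Mac and MHC-IIlo Mac no member passed, where 2.83% of all genes did, 1.52% higher and 1.3% lower, and the member median was -0.37 against -0.04. S100a11 did not overlap and lay higher, and S100a1 and S100a13 did not overlap and lay lower, against 8.3% of all genes, 4.27% higher and 4.03% lower. With the replicate block S100a11 passed as higher, where 5.8% of all genes were called, 2.87% higher and 2.93% lower. Between MHC-IIHi Mac and MHC-IIlo Mac no member passed either, where 0.0728% of all genes did, 0.0546% higher and 0.0182% lower, and the member median was -0.40 against 0.00. S100a4, S100a6, S100a10 and S100a13 did not overlap and lay lower, against 2.34% of all genes, 1.16% higher and 1.19% lower. With the replicate block S100a4 and S100a6 passed as lower, where 0.35% of all genes were called, 0.227% higher and 0.123% lower.

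Against Ly6cHi Mono many genes differed, so the members' counts stand on a high background. In CCR2+ Mac 3 of 7 members were lower and none higher, where 21.9% of all genes were called, 9.92% higher and 11.9% lower, and the member median was -0.82 against -0.10. All but S100a1, 6 members, lay lower without overlap, against 25.1% of all genes, 10.6% higher and 14.5% lower. Before the percentile was subtracted, only S100a4 and S100a6 of these lay lower without overlap. The processed signal of S100a11 was 15900 to 21700 in CCR2+ Mac and 19400 to 20800 in Ly6cHi Mono. In the same order S100a10 read 7160 to 9840 and 6280 to 7540, and S100a13 12000 to 18500 and 10800 to 14600. S100a9 read 23.9 to 657 and 417 to 974. With the replicate block 6 of 7 were lower, where 33.7% of all genes were called, 14.1% higher and 19.7% lower.

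In MHC-IIHi Mac 5 members were lower and 1 higher than in Ly6cHi Mono, where 21.5% of all genes were called, 10.1% higher and 11.4% lower, with a member median of -1.88 against -0.05. There 6 lay lower without overlap, against 22.7% of all genes, 10.4% higher and 12.3% lower. Before the percentile was subtracted, S100a9, S100a10 and S100a13 overlapped between these groups as well. The block gave the same counts for the members, where 31.7% of all genes were called, 13.6% higher and 18.1% lower. In MHC-IIlo Mac 3 were lower and 1 higher than in Ly6cHi Mono, where 21.4% of all genes were called, 10.1% higher and 11.4% lower, with a member median of -1.66 against -0.06. The same 4 did not overlap, against 23% of all genes, 10.4% higher and 12.6% lower. The block again gave the same counts, where 32.2% of all genes were called, 13.9% higher and 18.3% lower.

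**Figure D4:**
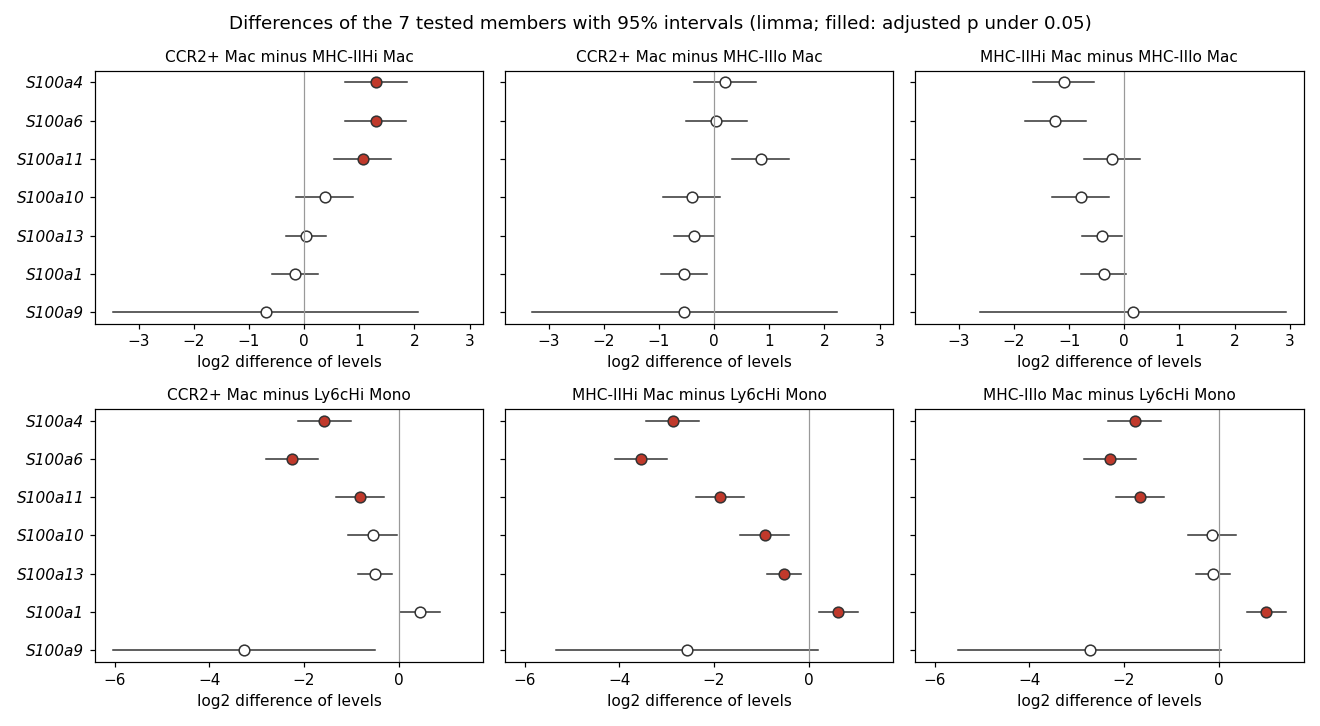
Log2 differences of levels of the 7 tested members in the 6 comparisons, first-named group minus second, with points at the limma estimate, lines for its 95% interval and filled points where the adjusted p was under 0.05. Filled points lie right of 0 for S100a4, S100a6 and S100a11 in CCR2+ Mac minus MHC-IIHi Mac, and left of 0 for the same genes in all 3 comparisons with Ly6cHi Mono. The intervals of S100a9 span several log2 units.

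Over the 16 arrays S100a4 and S100a6 had a Pearson r of 0.97, S100a6 and S100a11 of 0.906 and S100a4 and S100a11 of 0.875. S100a1 had an r of -0.581 with S100a4, -0.565 with S100a6 and -0.682 with S100a11. After the group means were removed, r was 0.652 for S100a4 with S100a6, 0.835 for S100a6 with S100a11 and 0.872 for S100a6 with S100a10. The arrays share 4 slides and 4 groups, so these values are descriptions. S100a1 had an r of 0.095 with S100a4, 0.417 with S100a6 and 0.214 with S100a11 after the group means were removed, none of them negative.

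The genes whose levels followed a member most closely over the 16 arrays were then listed, 3 per member. For S100a4 these were Samsn1 (r = 0.951), Anxa2 (0.943) and Zyx (0.939), and for S100a6 Ceacam2 (0.974), Anxa2 (0.969) and Samsn1 (0.969). Anxa2 averaged 3.35 in CCR2+ Mac, 2.22 in MHC-IIHi Mac, 2.89 in MHC-IIlo Mac and 4.48 in Ly6cHi Mono. For S100a11 they were Ybx3 (0.977), Kmt5a (0.974) and Pbxip1 (0.97). S100a1 was followed by Npl (0.944), Prxl2b (0.934) and Selenom (0.929), and Npl averaged -1.62 in CCR2+ Mac, 0.14 in MHC-IIHi Mac, 1.43 in MHC-IIlo Mac and -4.14 in Ly6cHi Mono. The closest to S100a10 was Bysl (0.882), to S100a13 Gm6825 (0.918) and to S100a9 Lman2 (0.846).

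Of the genes listed as S100 binding partners, Anxa1, Anxa2, the urokinase receptor gene Plaur and the dim Syt1 had their group means in the same order as S100a4, S100a6 and S100a11. The other tested partners did not. A place on the list does not show direct binding. Of 17 listed partners 16 were tested, and 3 were higher in CCR2+ Mac than in MHC-IIHi Mac with none lower (list median 0.14 against -0.03 over all genes). Anxa1 was higher by 1.48 ± 0.25 (adjusted p = 0.00719) and Anxa2, the partner of S100a10, by 1.13 ± 0.25 (adjusted p = 0.0345). Plaur was at least 2.80-fold higher (adjusted p = 0.00465), since it was not well above background on any MHC-IIHi Mac array. None passed between CCR2+ Mac and MHC-IIlo Mac or between MHC-IIHi Mac and MHC-IIlo Mac without the replicate block. With it, Anxa1, Anxa2 and Plaur were higher in CCR2+ Mac than in MHC-IIlo Mac (adjusted p = 0.0063, 0.0371 and 0.0125), and Anxa1 and Anxa2 were lower in MHC-IIHi Mac than in MHC-IIlo Mac (adjusted p = 0.00481 and 0.0321), each on 4 of 4 slides. The called share of all genes was 1.26% in the first of these comparisons without the block, and 5.8% and 0.35% in the other 2 with it.

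Against Ly6cHi Mono 3 partners were higher and 5 lower in CCR2+ Mac, 3 higher and 5 lower in MHC-IIHi Mac, and 3 higher and 3 lower in MHC-IIlo Mac (list medians -0.17, -0.36 and -0.20 against -0.10, -0.05 and -0.06 over all genes, of which 21.9%, 21.5% and 21.4% were called). Under the block Myh9 and Syt1 were also lower in MHC-IIHi Mac (adjusted p = 0.0293 and 0.0184), and Anxa6, Ahnak and Myh9 in MHC-IIlo Mac (adjusted p = 0.0339, 0.0132 and 0.0113). Syt1 was dim, well above background on 2 MHC-IIHi Mac and 2 Ly6cHi Mono arrays only. Anxa1 was lower by -2.54 ± 0.25 and Anxa2 by -2.26 ± 0.25 in MHC-IIHi Mac (adjusted p = 2.39e-06 and 6.79e-06), and Plaur was at least 11.6-fold lower there (adjusted p = 6.44e-07). In CCR2+ Mac the same genes were lower by -1.06 ± 0.25, -1.13 ± 0.25 and -2.06 ± 0.41 (adjusted p = 0.00702, 0.004 and 0.00182). The urokinase gene Plau went the other way, higher in CCR2+ Mac (2.23 ± 0.50), MHC-IIHi Mac (2.13 ± 0.50) and MHC-IIlo Mac (2.67 ± 0.50), although it was well above background on 1 monocyte array only. Ppfibp1, whose product liprin-beta-1 binds S100a4, was at least 1.46-fold higher in CCR2+ Mac (adjusted p = 0.000588), since no monocyte array read it well above background. Ppfibp1 was also called higher in MHC-IIHi Mac and MHC-IIlo Mac. In MHC-IIlo Mac Plaur, well above background on 2 of 4 arrays there, was lower by -3.64 ± 0.41, Anxa1 by -1.66 ± 0.25 and Anxa2 by -1.59 ± 0.25 (adjusted p = 7.87e-06, 0.000171 and 0.00022).

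**Figure D5:**
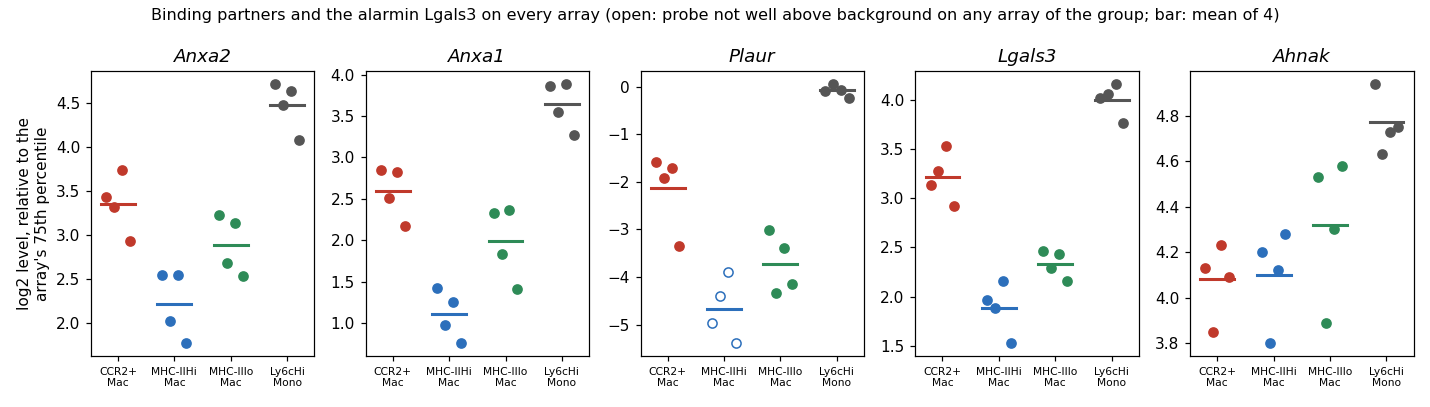
Levels of Anxa2, Anxa1, Plaur and Ahnak, from the list of S100 binding partners, and of the alarmin Lgals3 on each array, as log2 signal relative to the array's 75th percentile. Bars mark the mean of 4, and open circles stand where no array of the group read the probe well above background. Anxa2, Anxa1, Plaur and Lgals3 are highest in Ly6cHi Mono and lowest in MHC-IIHi Mac. The vertical axes differ between panels.

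Of 11 receptor and signalling genes of alarmins, all tested, Cd14, Cd36 and Il1rl1 were higher in every macrophage group than in Ly6cHi Mono. Cd14, whose product hands ligands to TLR4, averaged 3.47 ± 0.40 in CCR2+ Mac, 3.19 ± 0.12 in MHC-IIHi Mac and 2.92 ± 0.33 in MHC-IIlo Mac, against -0.37 ± 1.13 in Ly6cHi Mono (SD, n = 4 arrays each). It was higher in these groups by 3.83 ± 0.41, 3.56 ± 0.41 and 3.29 ± 0.41 (adjusted p = 8.31e-06, 1.21e-05 and 2.62e-05). Cd36, a scavenger receptor that can bind S100a8 and S100a9 with fatty acids, was higher by 2.07 ± 0.35, 2.22 ± 0.35 and 2.97 ± 0.35 (adjusted p = 0.000587, 0.00027 and 1.52e-05). Il1rl1, the receptor of the alarmin interleukin-33, was at least 6.17-, 7.09- and 5.70-fold higher (adjusted p = 1.3e-10, 3.64e-11 and 5.55e-11).

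The adaptor Myd88 was lower than in Ly6cHi Mono by -0.79 ± 0.25 in CCR2+ Mac, -1.13 ± 0.25 in MHC-IIHi Mac and -1.08 ± 0.25 in MHC-IIlo Mac (adjusted p = 0.0356, 0.00423 and 0.00548), and Nfkb1, an NF-kappaB subunit gene, by -1.15 ± 0.19 in MHC-IIlo Mac (adjusted p = 0.000289). Nfkb1 was also called lower in CCR2+ Mac and MHC-IIHi Mac. In all, 3 of the 11 genes were higher and 2 lower in CCR2+ Mac, 3 and 2 in MHC-IIHi Mac, and 3 and 3 in MHC-IIlo Mac than in monocytes, with list medians of 0.18, 0.11 and 0.48 against -0.10, -0.05 and -0.06 over all genes, of which 21.9%, 21.5% and 21.4% were called. Bsg, which encodes basigin, was also higher with the block in MHC-IIlo Mac (adjusted p = 0.0164). Tlr4 and Ager are given as the main S100 receptors, chosen after their values were seen. Tlr4 was dim, with means of -2.87, -3.25 and -1.80 in CCR2+ Mac, MHC-IIHi Mac and MHC-IIlo Mac and -3.10 in Ly6cHi Mono, and passed in no comparison. Ager, which encodes RAGE, averaged -0.47, -0.63 and -1.28 in the same macrophage groups and -0.74 in monocytes, and passed in none without the replicate block. Between heart groups 1 gene of the list passed, the inflammasome sensor Nlrp3, higher in CCR2+ Mac than in MHC-IIlo Mac by 0.86 ± 0.18 (adjusted p = 0.0144), where 2.83% of all genes were called. With the block Ager (adjusted p = 0.0408) and Nfkb1 (adjusted p = 0.0181) were higher in that comparison as well.

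Of 11 other alarmins on the list 9 were tested. Lgals3, which encodes galectin-3, was higher in CCR2+ Mac than in MHC-IIHi Mac by 1.32 ± 0.19 (adjusted p = 0.0016) and than in MHC-IIlo Mac by 0.88 ± 0.19 (adjusted p = 0.0158), and together with Anxa1 it made 2 calls of 9 in the first comparison and 1 in the second. Against Ly6cHi Mono Lgals3 was lower by -0.79 ± 0.19 in CCR2+ Mac, -2.11 ± 0.19 in MHC-IIHi Mac and -1.67 ± 0.19 in MHC-IIlo Mac (adjusted p = 0.00616, 5.6e-07 and 7.25e-06). The heat shock gene Hspa1a went far in the other direction, higher by 5.66 ± 0.31, 6.14 ± 0.31 and 5.85 ± 0.31 (adjusted p = 6.41e-09, 1.63e-09 and 2.74e-09). Hearts were digested before the sort and blood was not described so, and tissue handling and cell type cannot be told apart here. Hspd1, a mitochondrial chaperonin, was higher by 1.25 ± 0.32 in CCR2+ Mac (adjusted p = 0.0103) and was also called higher in MHC-IIHi Mac and MHC-IIlo Mac. Hmgb2, a chromatin protein, was lower by -1.25 ± 0.39 in MHC-IIHi Mac and -1.22 ± 0.39 in MHC-IIlo Mac (adjusted p = 0.0336 and 0.0374). In all, 2 of the 9 were higher and 2 lower in CCR2+ Mac, 2 and 3 in MHC-IIHi Mac, and 3 and 3 in MHC-IIlo Mac, with list medians of -0.26, -0.20 and -0.35 against -0.10, -0.05 and -0.06 over all genes, of which 21.9%, 21.5% and 21.4% were called. With the replicate block Lgals1 was lower in CCR2+ Mac than in MHC-IIlo Mac (adjusted p = 0.00687) and higher in MHC-IIHi Mac than in Ly6cHi Mono (adjusted p = 0.037), and Hmgb2 was lower in CCR2+ Mac than in Ly6cHi Mono (adjusted p = 0.00223).

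Of 13 transcription factors listed as candidate regulators of S100a8 and S100a9, 11 were tested and none passed between heart groups without the replicate block. With it Cebpd and Klf4 were lower in CCR2+ Mac than in MHC-IIlo Mac (adjusted p = 0.0107 and 0.0304). Against Ly6cHi Mono 2 were higher and 3 lower in CCR2+ Mac, 3 and 3 in MHC-IIHi Mac, and 4 and 2 in MHC-IIlo Mac (list medians -0.05, -0.46 and -0.36 against -0.10, -0.05 and -0.06 over all genes, of which 21.9%, 21.5% and 21.4% were called). With the block Spi1, which encodes PU.1, was also lower in all 3 groups (adjusted p = 0.00275, 0.0105 and 0.0188). The block added Klf4 as higher in CCR2+ Mac (adjusted p = 0.00236). In MHC-IIHi Mac they were Cebpa and Cebpd, higher (adjusted p = 0.0285 and 0.00634), and Cebpb and Rest, lower (adjusted p = 0.0229 and 0.0268). In MHC-IIlo Mac it was Irf7, lower (adjusted p = 0.0246). Cebpb, a C/EBP factor, was lower by -0.91 ± 0.25 in CCR2+ Mac and -1.10 ± 0.25 in MHC-IIlo Mac (adjusted p = 0.0162 and 0.00446). Cebpe, a C/EBP factor of granulocytes, was lower by -1.05 ± 0.35 in CCR2+ Mac and -1.64 ± 0.35 in MHC-IIHi Mac (adjusted p = 0.0442 and 0.00304), where 1 array read it well above background, and Stat3 by -0.92 ± 0.21 in MHC-IIHi Mac (adjusted p = 0.00464). Stat3 was also called lower in CCR2+ Mac and MHC-IIlo Mac. Myc was higher by 3.89 ± 0.45, 3.84 ± 0.45 and 3.14 ± 0.45 in CCR2+ Mac, MHC-IIHi Mac and MHC-IIlo Mac (adjusted p = 1.6e-05, 1.29e-05 and 9.12e-05), with 1 monocyte array well above background. Klf4 was higher by 1.15 ± 0.23 in MHC-IIlo Mac (adjusted p = 0.0016) and was also called higher in MHC-IIHi Mac. Atf3 was higher by 2.82 ± 0.24, 2.84 ± 0.24 and 2.47 ± 0.24 in the 3 macrophage groups (adjusted p = 5.6e-07, 3.42e-07 and 1.44e-06).

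The array holds 11 other S100-named genes, of which 10 were listed (not S100a7l2) and 7 of those tested. Of these, none passed between heart groups, and the list medians against Ly6cHi Mono were 0.49 in CCR2+ Mac, 0.15 in MHC-IIHi Mac and 0.34 in MHC-IIlo Mac, against -0.10, -0.05 and -0.06 over all genes, of which 21.9%, 21.5% and 21.4% were called. S100a14 was higher than in monocytes by 1.07 ± 0.27 in CCR2+ Mac (adjusted p = 0.0105) and 0.82 ± 0.27 in MHC-IIlo Mac (adjusted p = 0.0434), and S100a16 by 0.88 ± 0.22 in MHC-IIlo Mac (adjusted p = 0.00941). Under the block S100a2 and S100a16 were higher in CCR2+ Mac (adjusted p = 0.0415 and 0.0221), and S100a14 and S100a16 in MHC-IIHi Mac (adjusted p = 0.0118 and 0.0231). S100a3 was lower in all 3 groups under the block (adjusted p = 0.0146, 0.0304 and 0.00914). It was dim, well above background on 3 CCR2+ Mac, 2 MHC-IIHi Mac, 2 MHC-IIlo Mac and 2 Ly6cHi Mono arrays. A second S100a16 probe was not tested on its own. It averaged -1.20 in CCR2+ Mac, -1.05 in MHC-IIHi Mac, -0.52 in MHC-IIlo Mac and -1.29 in Ly6cHi Mono. S100a5, which lies between S100a4 and S100a6, was well above background on 2, 1 and 4 arrays of CCR2+ Mac, MHC-IIHi Mac and MHC-IIlo Mac and on 1 of Ly6cHi Mono. S100a7a was well above background on no array.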

How the data were processed

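RNA of each sorted sample (1 ng) was labelled with Cy5 and hybridised to Agilent mouse arrays, per the labels' protocols. The deposited scanner files hold, per the file headers, red-channel intensity from Agilent Feature Extraction 11.5.1.1, background-subtracted within each array by the authors and not scaled between arrays. The deposited value table was not used. Processed intensity was put on the log2 scale here and the array's 75th percentile subtracted. Control spots and spots marked as outliers were left out, and 110 of 39429 probes without a usable spot on some array were dropped. The headings of the probe and accession columns are exchanged in the files, so these columns were found from their contents. Accessions gave 27435 probes a current RefSeq symbol. Probes well above background on at least 4 of 16 arrays were kept (27643), and the brightest probe on average stood for a gene. limma 3.58.1 in R 4.3.3 (lmFit, eBayes) fitted 1 mean per group to all 16 arrays, with 12 residual degrees of freedom, tested on simulated data first. P-values are two-sided and adjusted by Benjamini-Hochberg over 21980 genes or features within each comparison, with 0.05 as threshold. In "at least N-fold", no array of the lower group read the probe well above background. Each such array is put at the dimmest signal it still read well above background, or at the probe's own if higher. The higher group is averaged over all its arrays, dim ones included. Intervals cover the spread between arrays, whose number limits the precision.

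Members, gene lists and tests were chosen with earlier results of these data known. All members were named, with values for at most 4 called genes per other list and comparison, by size of difference. Markers of sort and other cells were named beside a result, and the 3 most alike genes per member by Pearson r. Same-numbered arrays, which share a slide, deviated together (residual correlation 0.138 to 0.638 in 24 of 24 pairs), so the numbers group the arrays by slide. In some pairs, most of them with monocytes, an array of another number correlated better. Whether the sorted samples were paired as well is not stated. Alternatives were other scalings, filters, background correction, probe rule, blocks, weights, samples and each array left out. Protein sequences were not used here.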

Additional observations from a re-analysis of the deposited data

Results flagged for a closer look

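In 32 groups of 4 arrays (8 members in 4 groups), 3 had an array far from the other 3, and chance gives about 1 in 20 such groups. S100a4 read 5.68 in Ly6cHi Mono replicate 4, below the other monocyte arrays, which read 6.08 to 6.15. S100a10 read 1.52 in MHC-IIHi Mac replicate 4, below the other MHC-IIHi Mac arrays at 2.16 to 2.28. S100a13 read 3.04 in CCR2+ Mac replicate 1, below the other CCR2+ Mac arrays at 3.41 to 3.47.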

How the results depend on the processing

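Between CCR2+ Mac and MHC-IIHi Mac, 3 members passed, against 1 with median scaling, 0 with only the 2 groups in the fit and 0 to 3 with an array left out. Between CCR2+ Mac and MHC-IIlo Mac none passed, against 1 with quantile normalization, with the replicate block, with the replicate as a random block and with array weights. Between MHC-IIHi Mac and MHC-IIlo Mac none passed, against 2 with the replicate block, the random block and array weights. Between CCR2+ Mac and Ly6cHi Mono 3 passed, against 2 with median scaling, 2 to 4 with an array left out, 5 without the filter (S100a8 among them), 6 with the replicate block and 7 with the random block. The block changed no call of a member other than those given in the report. Over all genes the replicate block raised the calls to 551, 1274, 77, 7410, 6969 and 7067, against 278, 621, 16, 4804, 4732 and 4710 without it, in the order of the 6 comparisons plotted.

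Over the 26 alternatives of each difference of the 7 tested members, 1092 in all, 993 kept direction and call, 51 lost a call, 26 gained one and 22 changed sign. Leaving out an array of a group outside the comparison accounted for 7 of the lost calls, given in the report. The sign changes were all of differences that did not pass. For CCR2+ Mac minus MHC-IIHi Mac, S100a9 ran from -1.58 to 0.09 with an array left out, and S100a13 was -0.03 with normexp background correction and -0.01 to 0.13 with an array left out. For CCR2+ Mac minus MHC-IIlo Mac, S100a6 ran from -0.09 to 0.22 with an array left out, and S100a9 was 0.77 with array weights and -1.48 to 0.25 with an array left out. For MHC-IIHi Mac minus MHC-IIlo Mac, S100a9 was -0.00044 with normexp and -0.78 to 1.02 with an array left out. For MHC-IIlo Mac minus Ly6cHi Mono, quantile normalization gave S100a10 0.08 and S100a13 0.19. The cause was not tested. Against monocytes the median of all genes was -0.25 to -0.20 with normexp and -0.15 to -0.13 with median scaling. Signal over background limits S100a8 and S100a9.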
